A study of Mus musculus with 36 samples.

Results

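The comparison described here sets the Alk hairpin against the other gene-targeting hairpins in OT-I CD8 T cell arrays labelled spleen. Its members were taken from the labels: 3 arrays of cells transduced with a short hairpin RNA (shRNA) against Alk, and 12 arrays of cells with an shRNA against Ppp2r2d, Egr2, Ptpn2 or Arhgap5, 3 arrays each. They are 15 of the series' 36 arrays, and 18193 genes were compared, with 1 probe set per gene. The control of the series, 3 arrays of cells with an shRNA against LacZ, is left out of the comparison by its rule and its levels are given only beside single results. OT-I names a transgenic receptor by which these T cells recognise ovalbumin. In all groups the cells were transduced, given to mice that bore tumors of B16, a melanoma line, and isolated again as CD8 T cells, so that every group shares the transfer, the tumor and the transduction. The labels name neither the sex, age or strain of the mice, nor the time, nor the sequence of a hairpin. Each gene is represented by 1 hairpin label only. Nothing says that the 3 arrays of a group came from separate animals, so every p below measures the spread between arrays, and their number limits the precision.

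ALK is a receptor tyrosine kinase of the developing nervous system that binds the ALKAL ligands and signals through the adaptors SHC, IRS1 and FRS2 to the RAS, PI3K and STAT3 pathways. Fused to other proteins it drives a class of T cell lymphoma. Tumor macrophages, which take up lipid and dying cells, remodel matrix with metalloproteinases and can deplete arginine through ARG1, can be carried along when T cells are recovered from a tumor.

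All values are log2 and as deposited, and a difference is the mean of the 3 Alk arrays minus the mean of the 4 other hairpin means, ± its standard error. Genes are called at a limma adjusted p under 0.05 over all 18193 genes. Array medians lay between -0.35 and -0.29 in the Alk arrays and between -0.48 and -0.31 in the 12 others. The gap between the 3' and 5' probe sets of Gapdh, a sign of RNA quality, was 0.407 to 0.638 in the Alk arrays, inside the 0.246 to 0.828 of the others; in the LacZ arrays it was 0.829 to 1.39. The best correlation of an Alk array with any other array was 0.988 to 0.989, against 0.982 to 0.991 for the other hairpins, while the LacZ arrays stood apart at 0.954 to 0.971. Genes of the Y chromosome split the groups: Eif2s3y, a translation factor subunit gene, averaged -3.35 in the Alk arrays, against -3.13 with Ppp2r2d and -3.16 with Egr2, and 5.47 with Ptpn2 and 5.50 with Arhgap5. Xist, the RNA of the inactive X chromosome, ran the other way, with 6.38 in the Alk arrays, 6.25 and 6.26 with Ppp2r2d and Egr2, and 3.59 and 3.90 with Ptpn2 and Arhgap5. Sex-linked genes thus set the Alk group apart from the Ptpn2 and Arhgap5 groups, and the part of this split in the other results was not tested. T cell identity genes were high in every array, as the cell type label says: the mean level of 13 such genes was 5.17 to 5.27 in the Alk arrays and 4.99 to 5.51 in the others.

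The targeted gene itself was not lower in its own group. Alk read -1.79, -2.74 and -2.18 in the 3 Alk arrays, and between -3.29 and -1.88, with a median of -2.62, in the 12 others. The groups overlapped, and the difference of 0.38 ± 0.24 was not called (adjusted p = 0.513, 95% interval -0.13 to 0.89). The gene has 1 probe set, and its values lie in the lower part of each array's range, so these arrays do not show whether the transcript was reduced, and the group is named here by its label alone. Ppp2r2d, by contrast, averaged 3.62 in its own group and 4.64 in the Alk arrays, a difference that was called (adjusted p = 0.00257). Against the mean of all 4 other groups, the Alk arrays differed by 0.94 ± 0.28 for Arhgap5 (adjusted p = 0.0679) and 0.51 ± 0.17 for Egr2 (adjusted p = 0.131). The difference was 0.28 ± 0.15 for Ptpn2 (adjusted p = 0.405) and 0.12 ± 0.15 for Ppp2r2d (adjusted p = 0.792). A target's own group is only 1 of those 4. These differences therefore do not show whether Arhgap5, Egr2 or Ptpn2 was reduced in its own group. None of the 4 differences was called in the main fit, with 1 probe set per gene. The other Arhgap5 probe sets differed by 1.20 ± 0.18, 0.87 ± 0.19 and 0.44 ± 0.27 (limma adjusted p over all probe sets = 0.00163, 0.0189 and 0.531). Egr2 was called after quantile normalization and cyclic loess. Arhgap5 was called under 5 alternatives (cyclic loess, the mean of its probe sets, the filter on low values, array weights and limma-trend). It was also called in 3 of the 15 fits that left out 1 array. Among 25 measured genes of the ALK pathway 1 was called (4.00%), a share near the 4.43% of all genes. That gene, Gab1, a docking adaptor below receptor tyrosine kinases, read 0.87, 0.55 and 1.10 in the Alk arrays, above the -1.09 to 0.34 of the others (median -0.50), a difference of 1.27 ± 0.27 (adjusted p = 0.0134); without Alk array 1 or 3 that p was 0.056 and 0.103. The median difference over the pathway was -0.06, against -0.03 over all genes.

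Of the 18193 genes, 806 were called (4.43%), 552 higher and 254 lower in the Alk arrays (3.03% and 1.40%). After quantile normalization 633 were higher and 514 lower, so that falls made up 44.8% of the calls, against 31.5% with the values as deposited. The rises were larger than the falls: their median was 1.14, against -0.76 for the falls. In 323 genes (1.78%) all 3 Alk arrays read above all 12 others, and in 129 (0.709%) all below. Called with the arrays apart were 284 rises (1.56%) and 83 falls (0.456%), and 134 rises (0.737%) and 59 falls (0.324%) stayed called whichever array was left out. The 14 largest rises that also kept the arrays apart and stayed called whichever array was left out were Lad1, Mmp13, Mmp8, Pf4, Fabp4, Cd36, Mmp12, Arg1, Igf1, Apoe, Abca1, Pdpn, Npy and Ctsl. The corresponding 14 falls were Ctse, Ptprv, Gstt1, Alpk2, Ptpn13, Hemgn, Med12l, Il10ra, Gzmk, P2ry12, Nos1, Ttc39c, Galnt14 and Depdc7. The number of calls depends on Alk array 3: without it 281 genes were called, against 444 and 525 without Alk array 2 or 1.

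Apoe and Arg1 of the 14 leading rises are in the list of 20 macrophage and monocyte markers, and Pf4 and Igf1 are known products of macrophages as well. Pf4, a chemokine of platelets that macrophages also make, read 5.21, 5.38 and 6.08 in the Alk arrays, against 1.59 to 3.63 with a median of 2.18 in the 12 others. The groups were far apart and the difference was 3.24 ± 0.30 (adjusted p = 1.74e-05). Arg1, the arginase of alternatively activated macrophages, read 4.68, 4.70 and 5.80 with Alk and 1.41 to 2.90 in the others (median 2.02), a difference of 2.96 ± 0.29 (adjusted p = 3.88e-05). Igf1, the growth factor gene, read 2.00, 2.38 and 2.95 with Alk and -0.80 to 0.63 in the others (median -0.38), which is 2.75 ± 0.20 higher (adjusted p = 1.99e-06). In each of these 3 genes the third Alk array was the highest of the 15, and the LacZ arrays read below the Alk arrays: 1.24 to 1.75 for Pf4, 0.78 to 1.51 for Arg1 and -0.61 to 0.01 for Igf1.

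**Figure D1:**
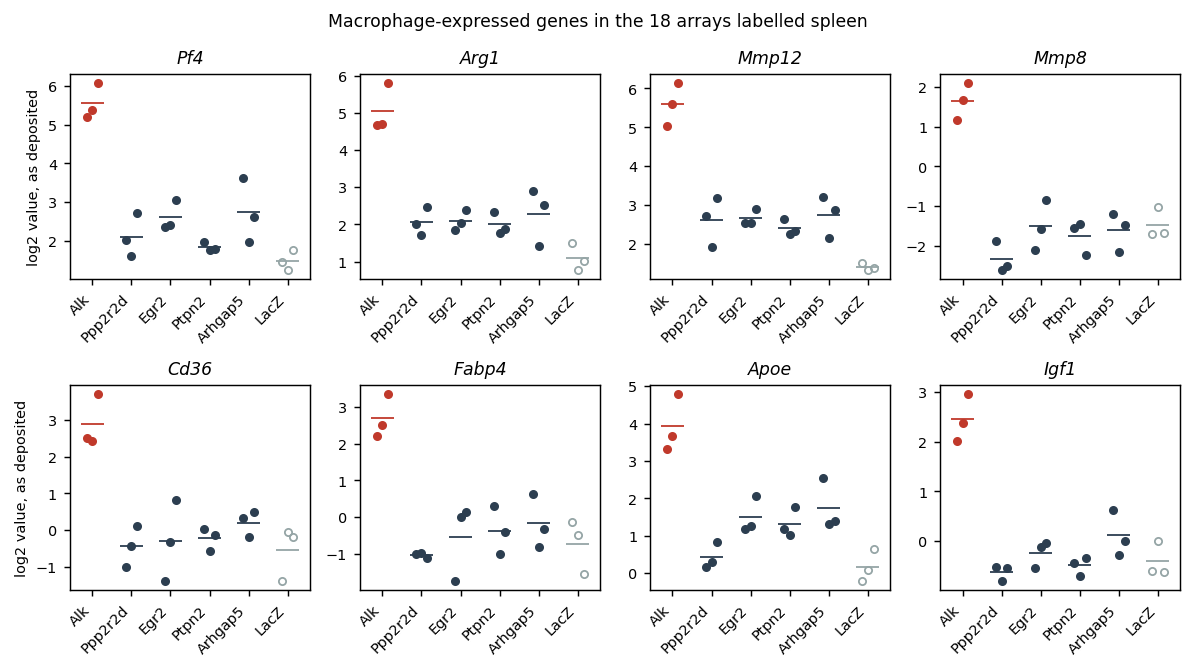
Log2 value, as deposited, of 8 genes in each of the 18 arrays labelled spleen, with 1 point per array and a bar at the mean of 3; Alk arrays are red, other hairpins dark and LacZ open grey. In all 8 genes the 3 Alk arrays lie above the 12 arrays of the other hairpins, for example 5.21 to 6.08 against 1.59 to 3.63 for Pf4.

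Genes of lipid uptake and transport were the next set. Cd36, a scavenger receptor for fatty acids and oxidised lipoprotein, read 2.50, 2.43 and 3.69 with Alk and -1.38 to 0.82 with the other hairpins (median -0.16), a rise of 3.06 ± 0.37 (adjusted p = 0.000306). Fabp4, a fatty acid carrier, read 2.22, 2.50 and 3.34 with Alk and -1.74 to 0.62 in the others (median -0.61), or 3.21 ± 0.38 higher (adjusted p = 0.000248). Apoe, the apolipoprotein that loads exported cholesterol, read 3.33, 3.68 and 4.78 against 0.15 to 2.55 (median 1.22) in the others (2.68 ± 0.31, adjusted p = 0.000236). Abca1, which pumps that cholesterol out of the cell, read 2.03, 2.07 and 3.48 with Alk and -1.17 to 0.89 with the others (median 0.10), a difference of 2.64 ± 0.33 (adjusted p = 0.000401). No Alk array overlapped the other hairpins in these 4 genes. A list of 23 lipid uptake, transport and storage genes was then written, after these values had been seen. In this list 14 rose (60.9%, against 3.03% of all genes) and none fell, with a median of 1.28. Its further members include Trem2, a lipid-sensing receptor of macrophages (2.21 ± 0.27, adjusted p = 0.000389), Lpl, the lipoprotein lipase (1.98 ± 0.29, adjusted p = 0.00145), the clearance receptor Lrp1 (2.13 ± 0.35, adjusted p = 0.00281) and the scavenger receptor Msr1 (1.35 ± 0.17, adjusted p = 0.000391). Without Alk array 3 the count was 11.

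Matrix metalloproteinases gave 3 of the 14 leading rises. Mmp13, a collagenase, read 2.27, 3.73 and 3.77 in the Alk arrays, against -1.89 to 0.66 (median -0.33) in the others; the difference was 3.73 ± 0.49 (adjusted p = 0.000644). Mmp8, the collagenase best known from neutrophils, read 1.18, 1.68 and 2.09 with Alk and -2.60 to -0.83 in the others (median -1.73), a difference of 3.44 ± 0.27 (adjusted p = 4.21e-06). Mmp12, the macrophage elastase, read 5.04, 5.61 and 6.14 with Alk and 1.91 to 3.20 in the others (median 2.59), a difference of 2.99 ± 0.26 (adjusted p = 1.19e-05). Again no array overlapped. Of 12 measured neutrophil markers Mmp8 alone was called (8.33%, against 4.43% of all genes). Csf3r, the receptor of the growth factor G-CSF, differed by 1.31 ± 0.43 and S100a8, a calcium-binding protein gene, by 0.79 ± 0.34 (adjusted p = 0.117 and 0.26), and the mean level of the list was -1.84 to -1.50 in the Alk arrays and -2.61 to -1.68 in the others. Among all 22 measured metalloproteinase and inhibitor genes, a family picked after the values were seen, 7 rose and none fell. The share called up was 31.8%, against 3.03% of all genes, and the median difference was 0.25. The other called members were Timp2, an inhibitor (1.54 ± 0.21, adjusted p = 0.000777), Mmp19 (1.35 ± 0.28, adjusted p = 0.0138), Mmp10 (1.03 ± 0.25, adjusted p = 0.0306) and Mmp14 (0.89 ± 0.21, adjusted p = 0.0269). Without Alk array 2 or 3 the family's count was 4. Mmp13, Mmp12, Mmp10 and Mmp8 belong to 1 run of 10 neighbouring metalloproteinase genes on mouse chromosome 9, in which 9 were measured and 4 called. The run was picked after the values were seen, and over all genes 4.43% were called. Mmp3 in the same run differed by 0.44 ± 0.28 and Mmp7 by 0.37 ± 0.19 (adjusted p = 0.504 and 0.369).

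The promoters of the neighbours Mmp13 and Mmp12, which rose together, are shown because both hold the letters of an AP-1 element, the site of FOS and JUN proteins, close to an annotated start. Each is 300 bases of RefSeq sequence (build GRCm38.p6, plus strand, 250 bases before to 50 after an annotated start), written 5′ to 3′. Capitals mark TGANTCA (AP-1) or GAGGAA (an element of the myeloid factor PU.1), each searched on both strands; Mmp12 has 2 annotated starts in the table.
Mmp13, chr9:7272264-7272563: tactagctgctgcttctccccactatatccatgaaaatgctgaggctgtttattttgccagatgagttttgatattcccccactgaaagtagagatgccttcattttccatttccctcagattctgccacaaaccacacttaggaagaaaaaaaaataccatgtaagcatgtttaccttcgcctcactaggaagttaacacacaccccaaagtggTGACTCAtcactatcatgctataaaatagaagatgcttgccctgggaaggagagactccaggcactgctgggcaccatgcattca
Mmp12, upstream start, chr9:7344147-7344446: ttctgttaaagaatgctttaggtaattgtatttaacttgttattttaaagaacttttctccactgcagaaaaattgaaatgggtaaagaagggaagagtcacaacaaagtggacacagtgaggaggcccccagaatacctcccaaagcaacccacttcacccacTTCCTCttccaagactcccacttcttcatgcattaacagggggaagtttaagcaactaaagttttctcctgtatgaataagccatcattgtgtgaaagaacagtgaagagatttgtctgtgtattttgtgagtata
Mmp12, downstream start, chr9:7347124-7347423: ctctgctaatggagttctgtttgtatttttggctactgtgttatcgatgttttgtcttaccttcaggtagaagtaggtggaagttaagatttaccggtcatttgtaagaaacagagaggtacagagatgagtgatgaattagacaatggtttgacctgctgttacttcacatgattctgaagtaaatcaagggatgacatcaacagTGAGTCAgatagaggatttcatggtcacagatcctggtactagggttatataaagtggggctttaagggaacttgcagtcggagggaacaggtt
The AP-1 letters stand in Mmp13 and at the downstream Mmp12 start, and the PU.1 letters at the upstream Mmp12 start, on the minus strand. In the whole table TGANTCA occurs in 7.81% and GAGGAA, on either strand, in 28.3% of the 32851 promoters. Of the 14 leading rises 12 had entries there, 15 promoters in all. TGANTCA was found in 3 of the 15 (in Igf1, Mmp12 and Mmp13) and GAGGAA in 6 (in Apoe, Igf1, Mmp12, Mmp8 and Pf4); DR1, a direct repeat bound by lipid-sensing nuclear receptors, was found in none and in 0.0396% of all promoters. These matches describe the windows only.

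Lysosomal and remaining genes completed the leading rises. Ctsl, a lysosomal cysteine protease, read 5.13, 5.22 and 6.06 with Alk and 2.35 to 3.50 with the others (median 2.96; 2.52 ± 0.21, adjusted p = 6.49e-06). Of 22 measured cathepsin genes, again a family picked after the fact, Ctsl, Ctsh, Ctsk and Ctss rose and Ctse fell. That is 18.2% up and 4.55% down, against 3.03% and 1.40% of all genes. Without Alk array 3 the rises numbered 2. Pdpn, the mucin podoplanin of stromal and inflammatory macrophages, read 3.34, 4.06 and 4.26 with Alk against 0.71 to 2.39 in the others (median 1.32; 2.56 ± 0.27, adjusted p = 8.48e-05). Npy, the neuropeptide Y gene, read 0.08, 0.83 and 1.33 against -2.72 to -0.76 (median -2.06; 2.56 ± 0.35, adjusted p = 0.000771). The groups did not overlap in any of these 3 genes. Lad1, the largest rise, is described with its chromosome below.

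Some chemokine ligands rose as well. Of 35 measured ligands, a family also picked after the values were seen, 10 were called up (28.6%) and none down. Their median was 0.21, and over all genes 3.03% were called up. Ccl7 and Ccl2, both attractants of monocytes, differed by 2.13 ± 0.30 and 1.90 ± 0.25 (adjusted p = 0.001 and 0.000653). Ccl2 read 4.52, 4.49 and 5.44 with Alk, above the 2.05 to 3.99 of the others (median 2.86). Ccl8 and Ccl6, 2 chemokines that macrophages make, differed by 1.63 ± 0.29 and 1.45 ± 0.20 (adjusted p = 0.00431 and 0.000985). Ccr2, the receptor of Ccl2 and Ccl7 on monocytes and activated T cells, fell: it read 4.30, 4.27 and 4.33 in the Alk arrays and 4.72 to 5.99 in the others (median 5.28), a difference of -0.99 ± 0.15 (adjusted p = 0.00179). Against Arhgap5 alone Ccr2 was not called.

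Set out as whole lists, macrophage markers rose and genes of classical inflammatory activation were not called. Of 20 macrophage and monocyte markers 18 were called up (90%, against 3.03% of all genes) and 1, Ccr2, down, with a median of 1.38. Itgam, the integrin CD11b, differed by 0.79 ± 0.25 and was not called (adjusted p = 0.102). Among the defining ones, Cd68 rose by 1.41 ± 0.18, C1qb by 1.43 ± 0.20, Fcgr3 by 1.39 ± 0.20, Lyz2 by 1.24 ± 0.20, Adgre1 by 1.66 ± 0.29 and Csf1r by 1.16 ± 0.29. None of these is at the bottom of the scale in the other hairpins: Lyz2, the lysozyme, read 5.97, 5.79 and 6.43 with Alk and 4.12 to 5.22 in the others (median 4.91). The mean level of the list was 4.08, 4.00 and 4.71 in the Alk arrays, 2.22 to 3.56 in the others and 2.06 to 2.62 in LacZ. All 3 Alk arrays thus lay above every other array, with Alk array 3 highest. The rise in the count rested partly on it: 9 of the 20 were called without Alk array 3, 13 without array 2 and 16 without array 1. In a bulk sample more cells of a type and more RNA per cell cannot be told apart. Whether macrophage RNA accounts for the other rises was not tested.

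A list of 20 alternative activation genes, written after the values were seen, had 8 rises (40%) and no fall. It holds Arg1 and Igf1 of the leading rises. Its median was 0.91, and over all genes 3.03% were called up. Folr2, a folate receptor of resident macrophages, differed by 2.42 ± 0.32, Hmox1, which degrades haem, by 1.68 ± 0.24, and Slc40a1, the iron exporter, by 1.53 ± 0.21 (adjusted p = 0.000653, 0.00114 and 0.00091). Members of this list that were not called include Chil3 (1.52 ± 0.46), Cd163 (1.01 ± 0.45) and Retnla (0.82 ± 0.46; adjusted p = 0.084, 0.28 and 0.431). Ccl17, Ccl22, Pdcd1lg2 and Il4ra lay between -0.08 and 0.21 and were not called either. Of 20 inflammatory activation genes, written at the same time, none was called, with a median of 0.24. In each of these lists 17 of 20 members differed by more than 0. Nos2, the inducible nitric oxide synthase, differed by 0.31 ± 0.26, Il1b by 0.54 ± 0.29 and Tnf by 0.03 ± 0.21 (adjusted p = 0.664, 0.405 and 0.976). The furthest of them was Il1a, at 2.09 ± 0.59 with an adjusted p of 0.0601. The difference between these lists was not tested. None of 11 markers of dendritic cells and MHC class II was called, and their median was -0.09; H2-Aa differed by 0.29 and Cd74, the invariant chain, by 0.42 (adjusted p = 0.613 and 0.249).

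**Figure D2:**
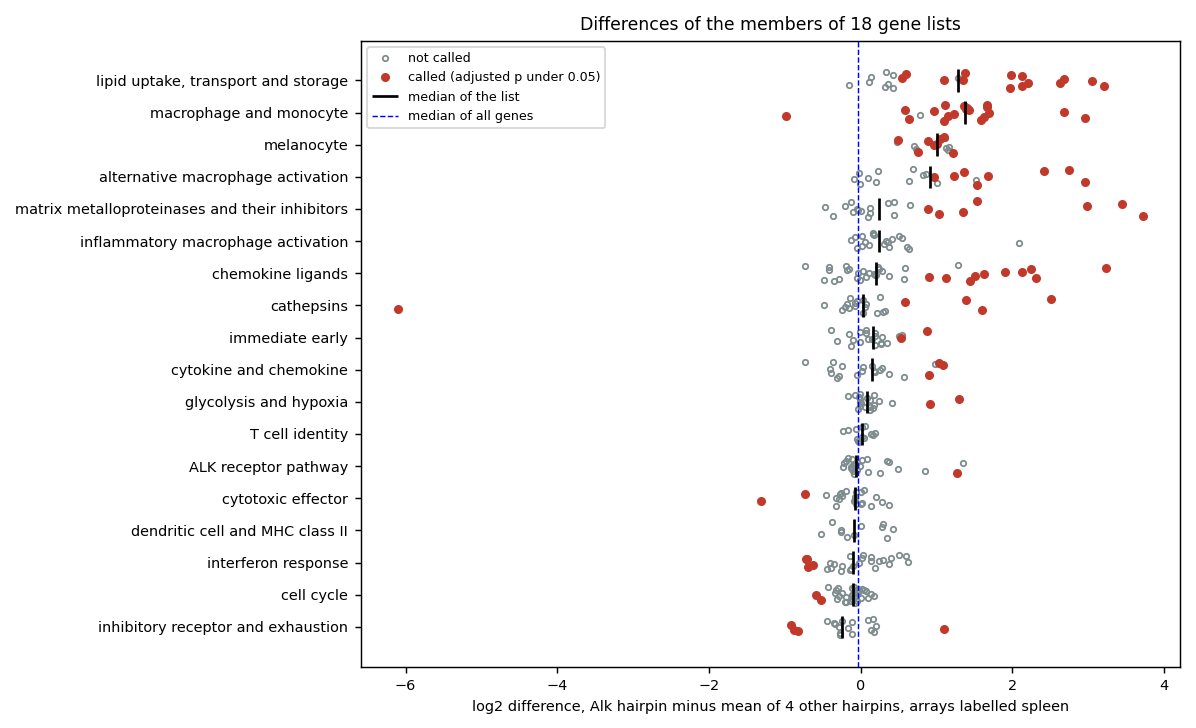
Log2 difference, Alk hairpin minus the mean of the 4 other hairpins in arrays labelled spleen, for every measured member of 18 gene lists; filled points were called, a black bar is the list's median and the dashed line the median of all genes (-0.03). Called members lie to the right in the lipid and alternative activation lists and, except for Ccr2 at -0.99, in the macrophage list. T cell identity and MHC class II have no called member.

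Pigment cell genes of the melanoma were higher too, with less separation between the groups. Of 15 melanocyte markers 8 were called up (53.3%, against 3.03% of all genes) and none down, with a median of 1.01. Their mean level was 3.48, 3.59 and 3.75 in the Alk arrays and 1.99 to 3.48 in the others, so that the groups touched, and 2.05 to 2.68 in LacZ. Gpnmb, a lysosomal glycoprotein of pigment cells and macrophages, read 5.37, 5.58 and 5.79 with Alk and 3.61 to 5.37 in the others (median 4.54; 1.05 ± 0.21, adjusted p = 0.0113). Mitf, the master regulator of pigment cells, differed by 1.10 ± 0.24, Syt4 by 1.22 ± 0.27 and Ptgds by 1.01 ± 0.24 (adjusted p = 0.0163, 0.016 and 0.0267). Dct, which makes melanin, differed by 0.73 ± 0.21 and was not called (adjusted p = 0.067). No melanocyte marker was called without Alk array 3, 1 without Alk array 2 and 4 without Alk array 1, and 13 without Egr2 array 3. The Ptpn2 arrays were nearest: against them alone 1 of the 15 was called, against 10 for Ppp2r2d, 4 for Egr2 and 3 for Arhgap5. Tissue labels and pigment genes are at odds in this series, since Dct read 5.56 to 5.77 in the Alk arrays labelled spleen and -1.67 to -0.98 in those labelled tumor; the labels are kept here as names.

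**Figure D3:**
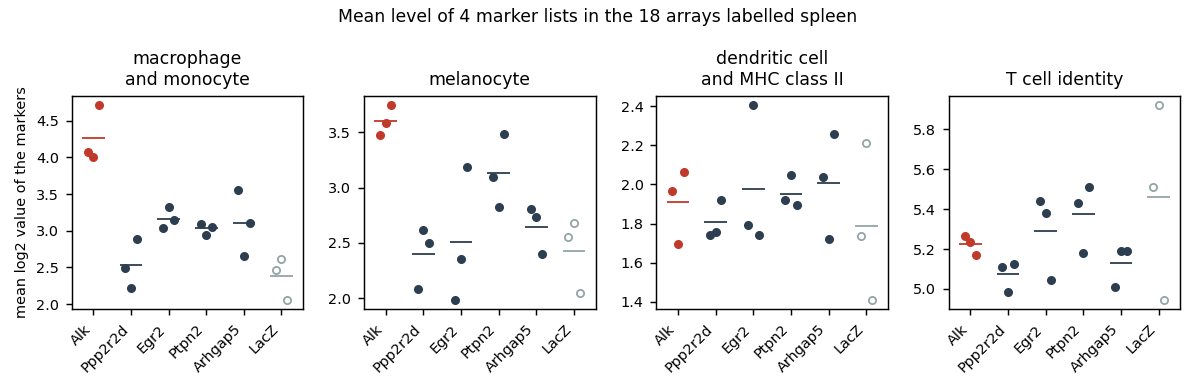
Mean log2 value of the markers of 4 cell types in each of the 18 arrays labelled spleen, 1 point per array and a bar at the mean of 3; each panel has its own axis. For macrophages the Alk arrays (4.00 to 4.71) lie above all others, for melanocytes they touch the highest other array (3.48), and for MHC class II and T cell identity they lie among them.

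Of the markers of other cells at most 3 per list were called, but the lists are short. The share called was 7.69% for B cell, 14.3% for stroma and endothelium and 11.1% for CD4 and NK cell genes. For platelet genes it was 37.5%, against 4.43% of all genes. Of 13 B cell genes Cd22, an inhibitory lectin receptor, rose (1.25 ± 0.24, adjusted p = 0.00674; 0.0563 without Alk array 3), while the list's level was -0.44 to -0.19 in the Alk arrays and -1.13 to -0.14 in the others. Of 14 stroma and endothelium genes Fn1 and Sparc, which encode matrix proteins, rose (1.17 ± 0.29 and 1.16 ± 0.24, adjusted p = 0.0302 and 0.0112), and both calls were lost without Alk array 2 or 3, that of Fn1 also without Alk array 1. Of 9 CD4 and NK cell genes the adaptor Tyrobp, shared with macrophages, rose by 1.11 ± 0.19 (adjusted p = 0.00297). Among 8 platelet genes Pf4 and Ppbp, neighbouring chemokine genes, rose and Gp1bb, a subunit of the von Willebrand factor receptor, fell by 0.83. Ppbp read -0.74, 0.52 and 1.35 with Alk and -2.79 to -1.05 in the others (median -1.89; 2.31 ± 0.35, adjusted p = 0.0015). No erythroid gene of 8 was called.

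Ctse had the largest difference of all, and it was a fall. Cathepsin E is an aspartic protease of the endolysosomes of immune cells. Ctse read -0.48, -0.86 and -0.18 in the Alk arrays, against 5.01 to 5.90 (median 5.79) in the 12 others, a difference of -6.10 ± 0.16 (adjusted p = 3.07e-12). The 3 LacZ arrays were on the Alk side, at -0.65, -0.82 and -1.35. A second Ctse probe set did not follow: it averaged 2.34 in the Alk arrays and 2.32 in the others, a difference of 0.01. Ptprv, a receptor-type tyrosine phosphatase, behaved alike, with 0.14, -0.04 and -0.20 in the Alk arrays, 1.57 to 2.89 (median 2.61) in the others and 0.09 to 0.88 in LacZ (-2.56 ± 0.19, adjusted p = 2.15e-06). Lad1, which encodes the basement membrane protein ladinin, was the mirror image and the largest rise: it read 2.76, 2.59 and 3.04 with Alk, -3.17 to -1.73 (median -2.17) with the other hairpins and 1.51 to 2.48 in LacZ (5.17 ± 0.18, adjusted p = 1.01e-10). In all 3 genes the Alk and LacZ arrays lay on 1 side and the 12 others on the opposite side.

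These 3 genes share mouse chromosome 1. On the RefSeq order they lie in the stretch that starts at Ctse and ends at Ptprc, the gene of the leukocyte antigen CD45. The stretch was picked after the values were seen, so its count is a description: of its 82 measured genes 11 were called, or 13.4%, against 4.43% of all genes, 7 up and 4 down, with a median of 0.01. The other falls were Atp2b4, a calcium pump of the cell surface (-1.26 ± 0.25, adjusted p = 0.00835), and Ddx59 (-0.57 ± 0.13, adjusted p = 0.0231). Of the other rises the largest was Chit1, a chitinase of macrophages (2.02 ± 0.20, adjusted p = 4.7e-05), which read 0.34, 0.40 and 0.78 with Alk, -2.46 to -0.03 in the others (median -1.82) and -0.37 to 0.09 in LacZ.

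**Figure D4:**
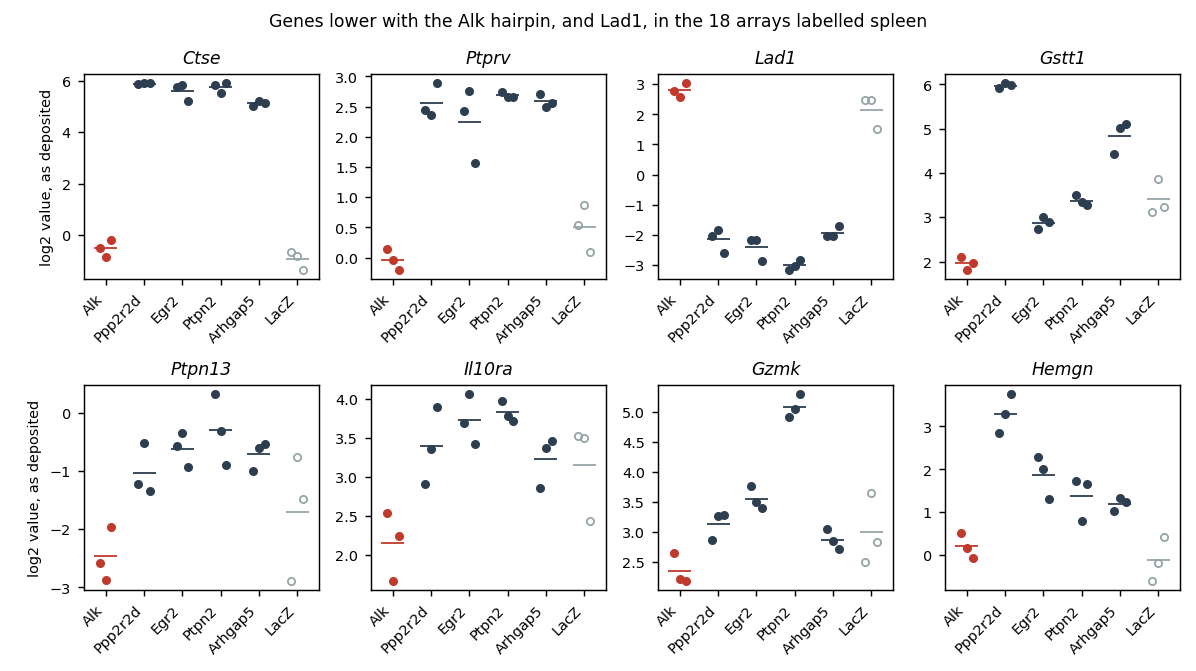
Log2 value, as deposited, of 7 genes that fell with the Alk hairpin and of Lad1, which rose, in each of the 18 arrays labelled spleen; 1 point per array, a bar at the mean of 3, LacZ in open grey. For Ctse, Ptprv and Lad1 the LacZ arrays sit near the Alk arrays (Ctse at -1.35 to -0.65, against 5.01 to 5.90 for the other hairpins).

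The remaining leading falls were smaller and less alike. Gstt1, a glutathione transferase, read 2.10, 1.81 and 1.97 with Alk and 2.74 to 6.03 in the others (median 3.96), a fall of 2.31 on the log2 scale (SE 0.14, adjusted p = 1.97e-07). Its level differed among the other hairpins themselves, with means of 5.97 for Ppp2r2d, 4.84 for Arhgap5, 3.37 for Ptpn2 and 2.88 for Egr2. Il10ra, the ligand-binding chain of the interleukin-10 receptor, read 2.53, 1.66 and 2.24 with Alk and 2.85 to 4.05 in the others (median 3.57; -1.39 ± 0.21, adjusted p = 0.00181), and was lower against each of the 4 hairpins. Ptpn13, a cytoplasmic tyrosine phosphatase, read -2.58, -2.87 and -1.95 with Alk and -1.35 to 0.32 in the others (median -0.58; -1.80 ± 0.25, adjusted p = 0.000784). Alpk2, an alpha kinase gene, fell by 1.82 and Med12l, a Mediator subunit gene, by 1.43 (adjusted p = 0.000401 and 0.00102), both also against each hairpin alone.

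Other falls were unequal among the hairpins. Hemgn, a nuclear protein of blood progenitors, read 0.51, 0.16 and -0.06 with Alk and 0.79 to 3.75 in the others (median 1.69; -1.73 ± 0.24, adjusted p = 0.000777), but it averaged 3.30 with Ppp2r2d and 1.20 with Arhgap5, from which Alk did not differ at the threshold (adjusted p = 0.107). Galnt14, which starts O-glycan chains, averaged -2.43 with Alk, 0.21 with Ppp2r2d and -1.92, -1.50 and -2.00 with Egr2, Ptpn2 and Arhgap5. P2ry12, an ADP receptor, fell by 1.25, Nos1, the neuronal nitric oxide synthase, by 1.19, Ttc39c by 1.15 and Depdc7 by 1.12 (adjusted p = 0.0024, 0.00102, 0.0048 and 0.00254). With all 36 arrays in the fit, Hemgn, P2ry12, Ttc39c, Galnt14 and Depdc7 were not called (adjusted p = 0.217, 0.0791, 0.0538, 0.0634 and 0.115), while the other 23 of the 28 leading genes were.

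Genes of T cell identity were not called, while a few effector and inhibitory receptor genes fell. None of 13 T cell identity genes was called, with a median of 0.01: Cd8a, the coreceptor, differed by 0.14, Cd3e by 0.05 and Thy1 by 0.17 (adjusted p = 0.651, 0.917 and 0.642). Of 24 cytotoxic genes 2 fell (8.33%) and none rose. Gzmk, granzyme K, read 2.64, 2.21 and 2.17 with Alk and 2.70 to 5.29 in the others (median 3.34; -1.31 ± 0.15, adjusted p = 0.000188), and its mean was 5.08 with Ptpn2 and 2.86 with Arhgap5, from which Alk was not distinguished (adjusted p = 0.203). Gzmm, granzyme M, differed by -0.74 ± 0.16 (adjusted p = 0.0163) and lost its call without any 1 of the Alk arrays. Over all genes 1.40% fell. Of 19 inhibitory receptor and exhaustion genes 1 rose, Cd200r1, a brake that myeloid cells carry as well (1.10 ± 0.22, adjusted p = 0.00863), and 3 fell (15.8%): Tox2, a factor of exhausted cells (-0.92 ± 0.22), Klrg1, a receptor of terminal effectors (-0.87 ± 0.21), and Prdm1, the factor BLIMP-1 (-0.82 ± 0.18; adjusted p = 0.0244, 0.0298 and 0.0168). Each of these 3 falls was lost without any 1 of the Alk arrays, and Cd200r1 without Alk array 3. Against Ppp2r2d or Arhgap5 alone no gene of this list was called lower, while 4 were against Egr2 and 5 against Ptpn2.

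Of the costimulatory receptor and cytokine genes 4 rose. Cd226, the costimulatory receptor DNAM-1 of T and NK cells, read 0.04, -0.30 and 0.00 with Alk and -3.30 to -1.16 with the others (median -2.46), a rise of 2.31 ± 0.19 (adjusted p = 5.63e-06). It was the only called gene of 12 costimulatory receptors, was higher against each of the 4 hairpins, and read -1.60 to -0.42 in LacZ. Tnfsf14, the cytokine LIGHT, read 3.51, 3.49 and 3.60 with Alk and 2.18 to 2.89 in the others (median 2.46; 1.03 ± 0.14, adjusted p = 0.000814). No array overlapped in either gene. Csf2, which encodes the growth factor GM-CSF, read 5.01, 5.20 and 5.66 in the Alk arrays, within the 2.05 to 6.06 of the others (median 4.20): its rise of 1.08 ± 0.18 (adjusted p = 0.00275) came with means of 2.50 for Ptpn2 and 3.36 for Egr2, while Ppp2r2d and Arhgap5 averaged 5.15 and 5.83. Cxcl16, a membrane-bound chemokine, rose by 0.90 ± 0.19 (adjusted p = 0.0123, and 0.117 without Alk array 3). Tnfsf14, Csf2 and Cxcl16 were the 3 rises among 21 cytokine and chemokine genes (14.3%), none of which fell. The called costimulatory receptor was 8.33% of its list, against 3.03% of all genes called up.

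The other lists gave at most 4 calls each, against 3.03% of all genes called up and 1.40% down. Of 18 naive and memory genes Il6ra and Dapl1 rose (11.1%), of 22 immediate early genes Atf3 and Fos, of 22 anergy genes Rnf128, an E3 ligase of anergic T cells, and of 21 JAK-STAT targets Pim2. Atf3, a stress-induced factor, read 4.20, 4.26 and 4.30 with Alk and 2.89 to 4.00 in the others (median 3.39; 0.88 ± 0.15, adjusted p = 0.00431), and Rnf128 differed by 1.09 ± 0.19 (adjusted p = 0.00364). Those 2 stayed called whichever array was left out, whereas Il6ra, Dapl1, Fos and Pim2 were lost without any 1 of the Alk arrays. With all 36 arrays in the fit, however, neither Atf3 nor Rnf128 was called. Against single hairpins Atf3 was not called up against Ptpn2 or Arhgap5, nor Rnf128 against Arhgap5. Of 21 glycolysis and hypoxia genes Car9 and Vegfa, both hypoxia targets, rose (1.30 ± 0.26 and 0.92 ± 0.18, adjusted p = 0.00999 and 0.00809), and of 23 stress genes Atf3 and Slc7a11, the cystine importer. Car9 lost its call without Alk array 2 or 3, and Vegfa and Slc7a11 without Alk array 3. Of 27 interferon response genes Ifih1, Oas3, Gbp3 and Isg20 fell (14.8%), of 31 cell cycle genes Tpx2 and Foxm1, and of 18 homing genes Ccr2 and Cxcr6. Of these falls Ccr2 alone was still called whichever array was left out, but it was not called against Arhgap5 alone. The interferon falls were unequal among the hairpins. Against Ptpn2 alone 7 genes of that list were called lower, and against Ppp2r2d, Egr2 or Arhgap5 alone none was. The median difference of the list was -0.55 against Ptpn2 and 0.04 to 0.09 against the other hairpins. No gene was called among 15 apoptosis, 15 MAPK phosphatase, 22 oxidative phosphorylation, 16 cholesterol synthesis, 11 heat shock, 16 ribosomal protein and 21 proteasome genes.

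Set against each hairpin in turn, with the Alk arrays shared by all 4 comparisons, the Alk group differed most from Ppp2r2d (1769 genes called, 9.72%, with 5.19% up and 4.53% down) and less from Ptpn2 (603, 3.31%), Egr2 (505, 2.78%) and Arhgap5 (454, 2.50%). The same contrast made for every other hairpin against the remaining ones called 1760 genes for Ppp2r2d (9.67%), 748 for Arhgap5 (4.11%), 580 for Ptpn2 (3.19%) and 262 for Egr2 (1.44%), so the 806 of Alk are neither the most nor the fewest. Called the same way against each of the 4 were 70 rises (0.385%) and 9 falls (0.0495%). The falls were Ctse, Ptprv, Gstt1, Alpk2, Ptpn13, Med12l, Il10ra, C1galt1 and Abcb1a. All 14 leading rises were among the 70. Macrophage markers were called up 18 times of 20 against Ppp2r2d, 13 against Ptpn2, 9 against Arhgap5 and 7 against Egr2; over all genes 5.19%, 1.91%, 1.62% and 1.79% were called up in the 4 comparisons. The sex-linked genes were called against Ptpn2 and Arhgap5 (4 of 5 each) and not against Ppp2r2d or Egr2.

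The 3 Alk arrays labelled tumor were not part of the comparison and allow the same contrast there, again without LacZ. It called 467 genes (2.57%), 363 up (2.00%) and 104 down (0.572%); the lowest value of these Alk arrays, -2.37 to -1.88, lay above that of 10 of the 12 other arrays, and its part in the rises was not tested. Ctse was lower there too, at 0.91 to 2.67 in the Alk arrays and 4.89 to 6.26 in the others (-4.10 ± 0.28, adjusted p = 4.36e-10), and LacZ averaged 1.44. Ptprv was lower by 2.54 (SE 0.22, adjusted p = 5.01e-08), Gzmk by 1.56 (adjusted p = 0.000192) and Atp2b4 by 1.53 (adjusted p = 0.00147). Pdpn was the 1 leading rise called again, at 1.93 (adjusted p = 0.00732). Of the 20 macrophage markers 13 read below 0 in all 15 of these arrays and 1 was called, Fcer1g, an Fc receptor chain, up by 0.92 (adjusted p = 0.0379). C1qb read -2.12 to -1.50 with Alk and -3.87 to -0.98 in the others, whereas Ctss, cathepsin S, read 6.25 to 6.73 with Alk and 3.68 to 6.92 in the others.

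The difference between the contrasts of the 2 labels was called for 75 genes (0.412%), 49 with the larger value under the spleen label. Arg1 differed by 2.96 in arrays labelled spleen and by -0.04 in arrays labelled tumor, a difference of 3.00 between the labels (adjusted p = 0.000131). Lad1 was 5.17 higher under the first label and 0.60 under the second (difference 4.57, adjusted p = 0.000131), and Igf1 2.75 and 0.05 (2.69, adjusted p = 0.000418). For Ptprv the contrasts differed by -0.02 (adjusted p = 0.984).

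**Figure D5:**
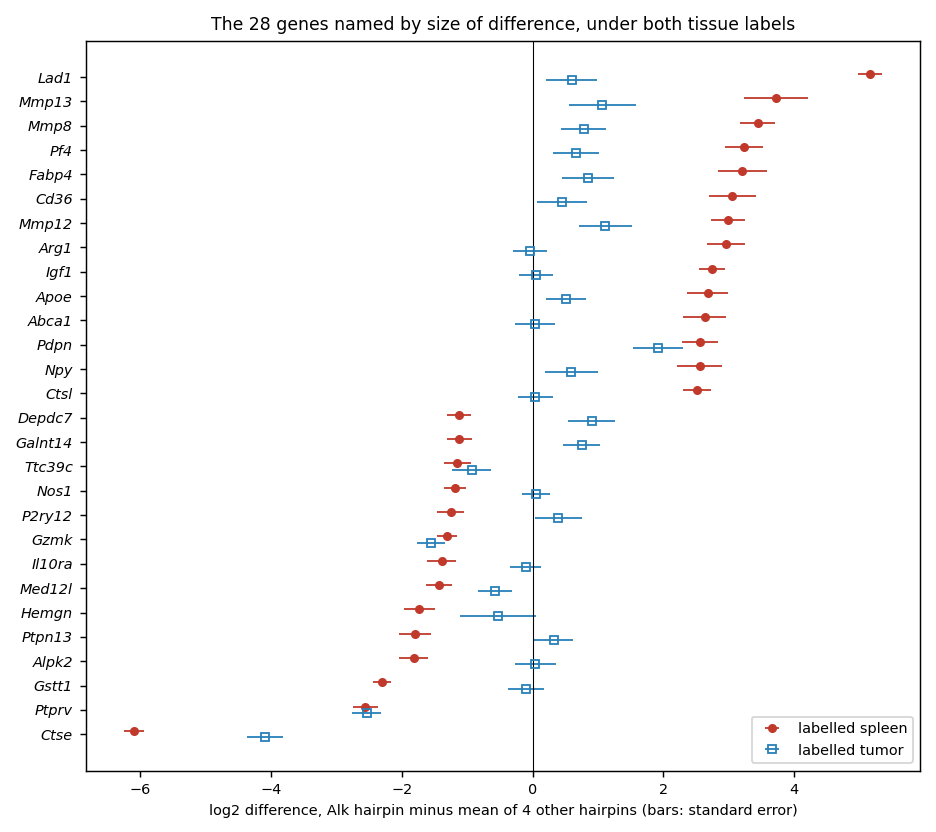
Log2 difference, Alk hairpin minus the mean of the 4 other hairpins, of the 28 leading genes in arrays labelled spleen (filled circles) and labelled tumor (open squares), with standard errors. Ctse, Ptprv, Gzmk and Pdpn were called under both labels; Arg1 stood at 2.96 under the spleen label and -0.04 under the tumor label.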

How the data were processed

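RNA of transduced OT-I CD8 T cells was measured on Affymetrix mouse arrays, 36 in 12 groups of 3. The deposited series matrix holds log2 values that the authors made with RMA, per the submitters' processing notes, which give no version. Values below 0 occur, and how they were centred is not given in the sources used here, so only differences between arrays are read.

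Of 45101 probe sets, 64 were controls, 34945 had 1 gene symbol, 932 several and 9160 none listed. Each of 18193 genes was represented by its brightest probe set, judged by the mean of all 36 arrays. limma 3.58.1 in R 4.3.3 fitted 1 mean per group to the 15 arrays, with eBayes, two-sided tests and Benjamini-Hochberg adjustment over all genes; genes were called at 0.05. The labels were compared in 1 limma fit of 30 arrays without LacZ. On simulated data 8 of 50 genes changed by 0.5 log2 units were recovered. At 1 log2 unit 34 of 50 were recovered and at 2 units 49 of 50, and 12 unchanged genes were called.

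The members and lists were chosen with earlier results of these data known, and 6 lists (metalloproteinases, cathepsins, chemokine ligands, lipid genes and 2 of macrophage activation) were added after seeing the values. Leading genes were the 14 largest rises and 14 largest falls that were called, kept the Alk arrays apart from the 12 others and stayed called whichever array was left out, without predicted genes. Up to 4 called members of each list, the 5 targeted genes and the 3 largest label differences each way were named too; further members named in the text were chosen after their values were seen. Sequences are from RefSeq (GRCm38.p6). Alternatives were other probe set summaries, filters, normalizations, sets of arrays, array weights, limma-trend, a limit on size, a replicate block and leaving out each array.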

Additional observations from a re-analysis of the deposited data

Results flagged for a closer look

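For 20 of the named genes the Alk contrast itself differed between arrays labelled spleen and arrays labelled tumor, by limma's test of that difference over 30 arrays without LacZ; the values below are the contrast under the spleen label minus that under the tumor label, on the log2 scale. Among the leading rises the difference was 4.57 for Lad1, 3.00 for Arg1, 2.69 for Igf1, 2.66 for Mmp8, 2.61 for Cd36, 2.60 for Abca1, 2.57 for Pf4, 2.47 for Ctsl and 2.17 for Apoe. The adjusted p of these 9 genes lay between 0.000131 and 0.024, and none of them was called in the arrays labelled tumor alone. Most of them sat low there: Arg1 read -1.42 to -0.88 in the Alk arrays labelled tumor and -2.15 to -0.41 in those of the other hairpins, whereas Abca1 and Ctsl were well up the scale, with 2.29 to 3.15 for Ctsl in the Alk arrays and 1.52 to 3.69 in the others.

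Among T cell genes Cd226 differed between the labels by 2.13 (adjusted p = 0.00522), with 2.31 under the spleen label and 0.18 under the tumor label, and Tnfsf14 by 1.20 (adjusted p = 0.0419). Gpnmb of pigment cells and macrophages differed by 1.62 (adjusted p = 0.0332) and the targeted gene Arhgap5 by 1.70 (adjusted p = 0.0432). Of the falls, Ctse differed by -2.00 (adjusted p = 0.0168) and was called under both labels, while Gstt1 differed by -2.20, Ptpn13 by -2.13 and Galnt14 by -1.88 (adjusted p = 0.00811, 0.019 and 0.0276) and were called under the spleen label alone.

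The furthest negative differences were those of Khdc1a, at -3.19 (adjusted p = 0.00177), Cdh17, which encodes a cadherin, at -2.77 (adjusted p = 0.0246), and Chrdl1, which encodes an antagonist of bone morphogenetic proteins, at -2.61 (adjusted p = 0.0272). Khdc1a averaged -2.71 in the Alk arrays labelled spleen, against -2.92 with Ppp2r2d, 1.25 with Egr2, -2.90 with Ptpn2 and 2.73 with Arhgap5, so its fall of 2.25 came from 2 of the hairpins. Chrdl1 differed by 0.01 under the spleen label and by 2.61 under the tumor label, where it read 0.43 to 1.77 in the Alk arrays and -3.36 to -0.16 in the others (adjusted p = 0.000547).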

How the results depend on the processing

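The 806 calls became 244 with all 36 arrays, 478 with the 18 labelled spleen, 1544 with array weights and 415 at a log2 difference of at least 1. Rises (552) numbered 194, 900 and 351 with 36 arrays, weights and the size limit; falls (254) 50, 101, 644 and 64 with 36 arrays, 18 arrays, weights and the limit, and 514 after quantile normalization. Leaving out 1 array gave 281 to 1029 calls, 169 to 627 rises and 110 to 402 falls, lowest without an Alk array and highest without Egr2 array 3. Against single hairpins 36 arrays gave 718 (Ppp2r2d), 132 (Egr2), 179 (Ptpn2) and 117 (Arhgap5), and quantile normalization 791, 971 and 689 for Egr2, Ptpn2 and Arhgap5. The label difference gave 350 after quantile normalization and 39 with 36 arrays, the contrast labelled tumor 1196 and 75. The causes were not tested. Egr2 was called after quantile normalization (adjusted p = 0.0437) and cyclic loess (0.0376), Arhgap5 with the mean of probe sets (0.00639), cyclic loess (0.0489), the filter on low values (0.0478), array weights (0.0127), limma-trend (0.041) and 3 of 15 arrays left out in turn. Chrdl1, at 0.01 (Alk minus others), reversed to -0.0865 with the mean of probe sets and lay between -0.0868 and 0.135 when 1 array was left out. Of 79 named values, 31 lost their call with 36 arrays, 14 with 18, 20 under the size limit and 5 with the mean of probe sets (Il6ra, Tpx2, Slc7a11, Mitf, Gp1bb); 96 of 1185 did when 1 array was left out.

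Deviations of same-numbered arrays (30 pairs) correlated weakly, with r between -0.30 and 0.23 and a median of 0.006. For arrays of different number (60 pairs) r lay between -0.32 and 0.25, with a median of 0.001. Pairs with r over 0.1 numbered 10 of 30 and 11 of 60. The difference was not tested, so these values cannot decide whether the numbers pair the arrays. With a replicate block 821 genes were called (578 up, 243 down). Against Ppp2r2d, Egr2, Ptpn2 and Arhgap5 the block gave 1685, 526, 549 and 453 calls. It gave 68 for the label difference and 397 labelled tumor. Under the block Dapl1, Fos and Cxcr6 were no longer called (adjusted p = 0.058, 0.0561 and 0.0713).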
